A study of Nicotiana tabacum with 54 samples.

Results

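VxG88 is 1 of 6 tobacco (Nicotiana tabacum) materials whose transcriptomes were sequenced in leaf, stalk and root after topping (cutting off the flower head). Its name joins the letters of Va116 and GDH88, and the question followed here is where its transcript levels lay relative to those namesakes. The 27 libraries labelled VxG88, Va116 or GDH88 were taken from the 54 of the series, 3 per material and tissue, and 9 of them were VxG88. The groups were VxG88 leaf, stalk and root after topping, set against Va116 leaf, stalk and root after topping and GDH88 leaf, stalk and root after topping. No agent, transgene or mutation was named for any of them, and all were sampled at the same stage. Each replicate came from 3 evenly grown plants of 1 material. No source used here states that VxG88 was bred from Va116 and GDH88, so both are called namesakes and not parents. Libraries are named by material and by the number of their column, and that number is not tied to the replicate letters of the labels.

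In a plant that carries one genome copy from each of 2 parents, a transcript can lie at the average of the parents, follow one parent, or lie beyond both. The average results when each parental copy keeps its own activity. A gene that is present or active in one parent only is then found at a reduced level in the offspring, while a gene fixed in an inbred line is either fully expressed or silent. Levels above both parents or below both are called transgressive. The study that reported the series follows glutathione S-transferases (GSTs), enzymes that attach the tripeptide glutathione to toxic or oxidised compounds, and the family is followed here as a named group among unnamed gene identifiers.

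Values were FPKM (mapped fragments scaled by transcript length and library size) for 69500 gene identifiers in each tissue table. Between 30999 and 34311 identifiers reached 1 FPKM in each of the 27 libraries, and FPKM sums per library lay between 773020 and 832327. A gene was tested in a tissue where 3 or more of the 9 libraries reached 1 FPKM, which left 34637 leaf genes, 34599 stalk genes and 35594 root genes. The identifiers carry no gene names in the tables used here, so markers of leaf, stalk or root could not be looked up. Sequencing depth is unknown, and the precision of low values cannot be stated.

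The labels of several libraries did not match their levels over genes that separate the namesakes, so places of libraries are given before the comparisons. Place is a scale on log2(FPKM + 1) where 0 is the mean of Va116 and 1 the mean of GDH88, taken over genes called different between the namesakes in the other tissues. Over 40 genes called in at least 1 of the other tissues, the leaf VxG88 libraries 1, 2 and 3 lay at 0.38, 0.64 and 0.48. Leaf library 2 was thus nearest to GDH88. Over 139 such genes the stalk VxG88 libraries lay at 0.55, 0.22 and 0.24, with library 1 apart from the others. The stalk library labelled GDH88 1 lay at 0.47, within reach of VxG88, whereas GDH88 2 and 3 lay at 1.32 and 1.41. Stalk Va116 3 lay at 0.20, close to VxG88 2 and 3, against -0.088 and -0.13 for Va116 1 and 2. In root, over 149 genes, the VxG88 libraries lay close together at 0.32, 0.33 and 0.32, and the library labelled GDH88 2 lay at 0.26 against 1.56 and 1.61 for GDH88 1 and 3. Genes called in both other tissues were only 4, 12 and 7, and over them the mean place of VxG88 was 0.77 for leaf, 0.78 for stalk and 0.52 for root. These small lists did not set apart leaf VxG88 2, at 0.76 between 0.70 and 0.84 for libraries 1 and 3. Nor did they set apart stalk GDH88 1, at 0.96 beside 1.07 and 0.97 for GDH88 2 and 3. Stalk VxG88 1 was at 1.00 against 0.70 and 0.64, and root GDH88 2 at 0.52 against 1.37 and 1.27. Stalk Va116 3 was at 0.34 against -0.13 and -0.28 for Va116 1 and 2. It thus stood apart over both lists, but it is not counted among the doubted libraries below. The labels of leaf VxG88 2, stalk VxG88 1, stalk GDH88 1 and root GDH88 2 are held in doubt. By place, leaf VxG88 2 and stalk GDH88 1 stood apart over the larger lists only. Results that rest on these libraries are given with and without them.

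**Figure D1:**
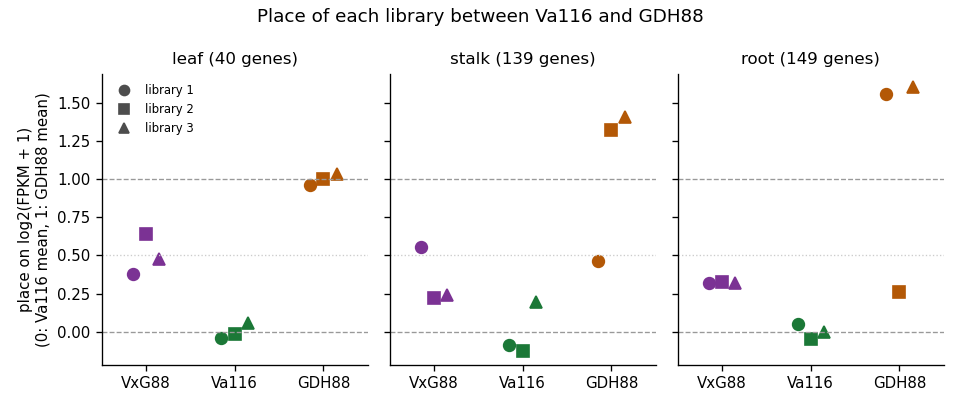
Place of each library (y axis, log2(FPKM + 1) scale, 0 the Va116 mean and 1 the GDH88 mean) for VxG88, Va116 and GDH88 in leaf, stalk and root, each symbol 1 library. The stalk library GDH88 1 at 0.47 and the root library GDH88 2 at 0.26 sit away from the other GDH88 libraries and near the VxG88 points, and leaf VxG88 2 at 0.64 is the highest of its group.

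VxG88 differed from the midpoint of its namesakes in few genes. In leaf 8 genes were higher and 2 lower than the midpoint (limma on log2(FPKM + 1), Benjamini-Hochberg adjusted p below 0.05), together 0.0289% of genes tested, with 0.0231% higher and 0.00577% lower. In stalk 2 were higher and 2 lower (0.0116%, or 0.00578% each way), and in root 1 was higher and 0 lower (0.00281%). At an unadjusted p below 0.05 there were 1336 leaf genes, 527 stalk genes and 2256 root genes, or 3.86%, 1.52% and 6.34% of those tested. In such bulk samples, fewer cells of a type and less RNA per cell cannot be told apart. The counts depended on single libraries, doubted or not. Without leaf VxG88 2 the leaf count was 32, with 20 higher and 12 lower, but without VxG88 1 it was 2, without VxG88 3 it was 1, without Va116 1 it was 5 and without GDH88 3 it was 4. The stalk count was 15 without GDH88 1, 1 without GDH88 2, and 0 without any single VxG88 library, Va116 2 or 3, or GDH88 3. The root count was 10 without GDH88 2, with 8 higher and 2 lower, 2 without GDH88 1, and 0 without VxG88 2 or 3, any single Va116 library or GDH88 3. The median difference from the midpoint over all genes tested was 0.11 for leaf, 0.05 for stalk and -0.13 for root on the log2 scale, and single genes are best read against these shifts.

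Set against each namesake alone, VxG88 leaves gave 14 calls against Va116 and 52 against GDH88. In leaf, 14 genes were higher and 0 lower in VxG88 than in Va116 (0.0404% called), and 46 were higher (0.133%) and 6 lower (0.0173%) than in GDH88, together 0.15%. In stalk the counts were 4 higher (0.0116%) and 1 lower (0.00289%) against Va116, together 0.0145%. Against GDH88 2 were higher (0.00578%) and 9 lower (0.026%), together 0.0318%. In root 10 genes were higher and 0 lower than in Va116 (0.0281%), and 1 was higher than in GDH88 (0.00281%). The root comparison with GDH88 turned on 1 library: without GDH88 2 it called 29 genes, 22 higher and 7 lower. With the replicate block, which paired the root libraries of VxG88 and GDH88, it called 0. The stalk comparison with GDH88 likewise called 38 genes without GDH88 1, 16 higher and 22 lower. The namesakes themselves differed in 145 leaf genes (0.419%), 72 of them higher in Va116 (0.208%) and 73 in GDH88 (0.211%). The leaf count was 224 with the same replicate block. They differed in 28 stalk genes (0.0809%), 5 higher in Va116 (0.0145%) and 23 in GDH88 (0.0665%), and in 18 root genes (0.0506%), 1 higher in Va116 (0.00281%) and 17 in GDH88 (0.0478%).

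Genes above both namesakes were rare, and no gene was called below both. A gene counted as beyond both when it was called against each namesake in the same direction. There were 3 leaf genes (0.00866%), 1 stalk gene (0.00289%) and 1 root gene (0.00281%), all of them also called off the midpoint. Nitab4.5_0006949g0020 had 5.18, 5.23 and 7.47 FPKM in VxG88 leaves, against 0.02, 0.1 and 0 FPKM in Va116 leaves and 0, 0.04 and 0 FPKM in GDH88 leaves. Every VxG88 leaf library was above every namesake library. VxG88 leaves averaged 5.96 ± 1.31 FPKM, Va116 leaves 0.04 ± 0.053 and GDH88 leaves 0.013 ± 0.023 (SD, n = 3 each), a difference from the midpoint of 2.75 ± 0.17 (SE, log2(FPKM + 1), limma adjusted p = 0.0027). It was called in each of the 9 fits that left out 1 library, with adjusted p between 0.008 and 0.025, but not with a pseudocount of 0.01 (adjusted p = 0.39) or a minimum of 5 FPKM (adjusted p = 0.55). This gene was also expressed in VxG88 stalks at 4.02, 4.14 and 6.12 FPKM and in VxG88 roots at 6.52, 2.49 and 3.74 FPKM. It was at 0 in all Va116 stalk and root libraries. Among the GDH88 stalk libraries it was at 4.49 FPKM in GDH88 1 and at 0 in the others, and among the GDH88 root libraries at 4.21 FPKM in GDH88 2 against 0.05 and 0 FPKM in GDH88 1 and 3. The only namesake libraries with the transcript at the level of VxG88 were therefore the ones whose labels are in doubt. Nitab4.5_0006949g0030 had 3.69, 6.61 and 4.48 FPKM in VxG88 leaves, against at most 0.44 FPKM in Va116 leaves and 0.22 FPKM in GDH88 leaves. Its difference from the midpoint was 2.26 ± 0.2 (SE, adjusted p = 0.0091), and in stalk and root it was likewise present in stalk GDH88 1 (3.72 FPKM) and root GDH88 2 (4.88 FPKM), with the other namesake libraries at 0.25 FPKM or less. Without VxG88 1, VxG88 3 or GDH88 3 it was not called in leaf (2.27 to 2.42). The remaining leaf gene above both namesakes carries the same scaffold number in its identifier as these genes. Among the other materials of the series, Nitab4.5_0006949g0020 reached 15.1, 15.8 and 8.16 FPKM in Hongda leaves and 7.7, 6.15 and 5.64 FPKM in HxB leaves. Basma leaves had 0, 0.08 and 0.02 FPKM. Basma stalks 1, 2 and 3 had 4.46, 0 and 0 FPKM, and Basma roots 5.52, 0.06 and 0.08 FPKM.

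Stalk and root had 1 gene each above both namesakes. Nitab4.5_0000020g0190 had 5.92, 9.99 and 8.23 FPKM in VxG88 stalks, against 0.77, 0.36 and 0.23 FPKM in Va116 stalks and 0.08, 0.07 and 0 FPKM in GDH88 stalks. The groups did not overlap, and VxG88 was 2.86 ± 0.22 above the midpoint (SE, adjusted p = 0.012). The call was lost on leaving out any single VxG88 library, Va116 2 or 3, or GDH88 2 or 3, with differences of 2.70 to 3.04 in those fits, and likewise with the replicate block (adjusted p = 0.095), a pseudocount of 0.1 (0.052) or 0.01 (0.79) or a minimum of 5 FPKM (1.0). Nitab4.5_0000571g0030 had 109, 82.9 and 77 FPKM in VxG88 stalks, against 10.7, 8.63 and 7.13 FPKM in Va116 stalks and 10.6, 24.01 and 10.45 FPKM in GDH88 stalks. It lay 2.9 ± 0.29 above the midpoint (SE, adjusted p = 0.044) and was called against Va116 (adjusted p = 0.049) but not against GDH88 (adjusted p = 0.075). The call off the midpoint was lost without any single VxG88 or Va116 library or without GDH88 3 (2.75 to 3.0), and with the replicate block (adjusted p = 0.14), no filter (0.052), median scaling (0.076), a pseudocount of 0.1 (0.052) or 0.01 (0.16) or a minimum of 5 FPKM (0.066). The same gene was high in VxG88 roots, at 56.5, 72.1 and 95.7 FPKM, and in leaves 1 and 3 of VxG88, at 50.6 and 69.2 FPKM. In leaf VxG88 2 it was at 9.95 FPKM, inside the span of 8.28 to 17.4 FPKM of the namesake leaves. In root it was at 64.1 FPKM in the library GDH88 2, inside the range of VxG88, while GDH88 1 and 3 were at 19.6 and 20.3 FPKM. Nitab4.5_0019167g0010 had 14.8, 6.63 and 7 FPKM in VxG88 roots and was listed at 0 in every Va116 and GDH88 root library. It was also listed at 0 in all 18 leaf and stalk libraries of the 3 materials, so among these 3 materials it was seen in VxG88 roots alone. In roots of the other materials it had 0, 11.26 and 16.62 FPKM in Hongda, 0, 0 and 11.7 FPKM in HxB and 4.33, 26.18 and 20.39 FPKM in Basma. Its difference from the midpoint was 3.3 ± 0.24 (SE, log2(FPKM + 1), adjusted p = 0.012), with no fold given because the namesakes were at 0. The call was lost without VxG88 2 or 3, without any single Va116 library and without GDH88 3 (3.30 to 3.49). It was also lost with the column number as a replicate block (adjusted p = 0.14), with all 18 root libraries in the fit (0.94), with a pseudocount of 0.01 (0.71) and with a minimum of 5 FPKM (0.32).

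**Figure D2:**
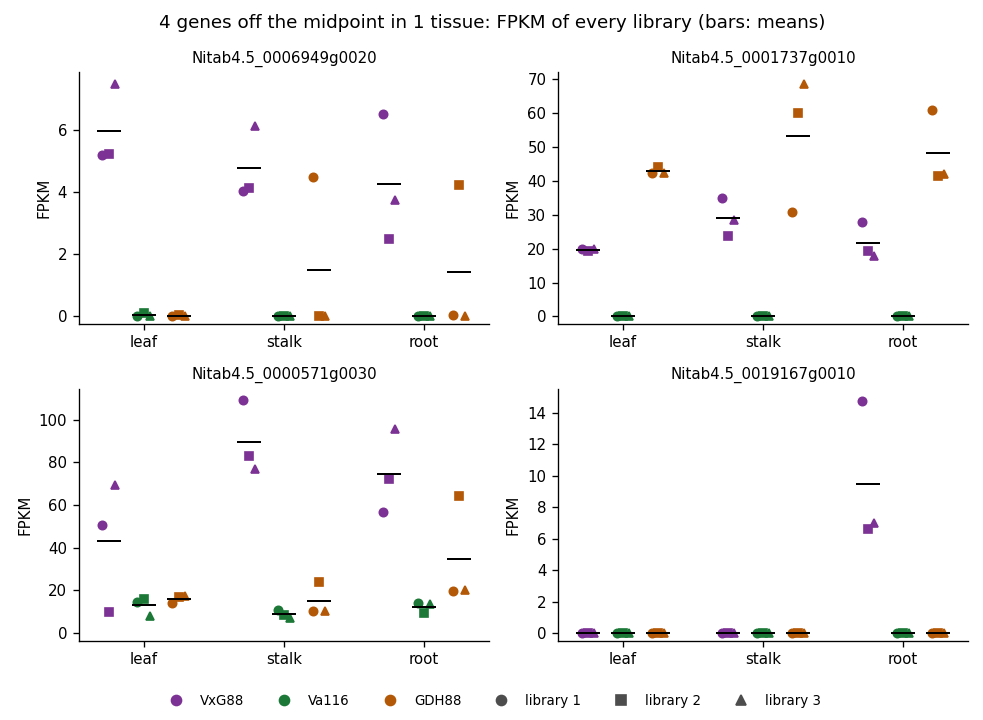
FPKM (y axis) of 4 genes in every library of VxG88, Va116 and GDH88 by tissue, with bars at group means and symbols for libraries 1 to 3. Nitab4.5_0006949g0020 is near 0 in the namesakes except for 4.49 FPKM in stalk GDH88 1 and 4.21 FPKM in root GDH88 2, and Nitab4.5_0001737g0010 in VxG88 lies between Va116 near 0 and GDH88 in each tissue.

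Most other genes called off the log2 midpoint followed Va116. Of the 10 leaf calls, 6 were called against GDH88 and not against Va116, with GDH88 near 0 in 4 of them and VxG88 and Va116 near 0 in the rest. Of these 6, 2 were also called against the midpoint of linear FPKM. The single leaf gene called against both namesakes and lying between them was Nitab4.5_0001737g0010. It had 19.95, 19.28 and 19.93 FPKM in VxG88 leaves, against 0.08, 0.05 and 0 FPKM in Va116 leaves and 42.25, 44.08 and 42.37 FPKM in GDH88 leaves. The 3 groups stood apart with little spread: 19.7 ± 0.38 FPKM in VxG88, 0.043 ± 0.04 FPKM in Va116 and 42.9 ± 1.02 FPKM in GDH88 (SD, n = 3 each). On the log2 scale this was 1.61 ± 0.13 above the midpoint (SE, adjusted p = 0.0073), but against the midpoint of the linear FPKM it was -0.12 (adjusted p = 0.93). A gene silent in 1 namesake lies above the log2 midpoint when it lies at the linear average, so this call holds on the log2 scale only. On that scale it was lost without VxG88 1 or 3 (1.61 each). The intermediate level recurred in the other tissues, at 35, 23.8 and 28.3 FPKM in VxG88 stalks against at most 0.17 FPKM in Va116 stalks and 30.9, 60 and 68.6 FPKM in GDH88 stalks. In roots VxG88 had 27.8, 19.3 and 17.7 FPKM, Va116 at most 0.11 FPKM and GDH88 60.9, 41.4 and 42.1 FPKM. Here root GDH88 2 did not stand apart from GDH88 3, unlike for the genes above, while stalk GDH88 1 at 30.9 FPKM was inside the range of VxG88.

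With the midpoint taken on linear FPKM, 6 leaf genes, 9 stalk genes and 1 root gene were called, of which 5, 4 and 1 were also called on the log2 scale. Both stalk genes below the midpoint followed Va116. Nitab4.5_0003151g0070 was listed at 0 in all 3 VxG88 stalk libraries, against 0, 0.06 and 0 FPKM in Va116 stalks and 47.5, 86.5 and 103 FPKM in GDH88 stalks (difference from the midpoint -3.14 ± 0.24, SE, adjusted p = 0.012). Nitab4.5_0000363g0020 was at 0 in every VxG88 and Va116 stalk library, against 16.4, 30.1 and 30.3 FPKM in GDH88 stalks (-2.34 ± 0.22, SE, adjusted p = 0.044). Of the fits without 1 library, those without any single VxG88 library, Va116 2 or 3, or GDH88 2 or 3 lost the first (-3.15 to -3.03), and the second was called only in the one without GDH88 1 (-2.48 to -2.27 over these fits). With the replicate block neither was called (adjusted p = 0.095 and 0.14). Both genes were silent in VxG88 roots as well, but leaf VxG88 2 had 10.8 FPKM of the first and 16.3 FPKM of the second where leaf libraries 1 and 3 had 0. The lowest differences among genes with all VxG88 libraries under the namesakes were not called in leaf or root. Nitab4.5_0002978g0140 had 10.1, 5.56 and 6.66 FPKM in VxG88 leaves, against 72.8, 61.3 and 249 FPKM in Va116 leaves and 28.9, 296 and 194 FPKM in GDH88 leaves, with a difference of -3.77 ± 0.73 (SE, adjusted p = 0.55). Nitab4.5_0007505g0060 had 2.05, 0 and 1.96 FPKM in VxG88 roots, against 6.3 to 10.7 FPKM in Va116 roots and 8.84 to 15.3 FPKM in GDH88 roots (-2.35 ± 0.38, SE, adjusted p = 0.44). Nitab4.5_0002485g0020, the highest root difference but not called, had 47.6, 19.2 and 41.4 FPKM in VxG88 roots, against 0.12 to 0.37 FPKM in Va116 roots and 0, 2.8 and 2.43 FPKM in GDH88 roots (4.35 ± 0.45, SE, adjusted p = 0.1). It was called against Va116 alone (adjusted p = 0.04).

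Separation of all VxG88 libraries from all namesake libraries was more frequent than calls and differed in direction by tissue. It is a description without adjustment over genes, and how many genes would separate without any difference was not tested. In leaf all 3 VxG88 libraries lay above all 6 namesake libraries in 731 genes (2.11%) and below them in 171 (0.494%). In stalk this held for 159 genes above (0.46%) and 47 below (0.136%), and in root for 330 above (0.927%) and 1134 below (3.19%). The directions followed the median shifts given above. Leaf and stalk shared 5 of the genes above, which was 0.684% of the leaf genes and 3.14% of the stalk genes, beside 0.46% and 2.11% of all genes tested. Stalk and root shared 5 of the genes below, which was 10.6% of the stalk genes and 0.441% of the root genes, beside 3.19% and 0.136% of all genes tested. The remaining overlaps were under the share of all genes tested. Leaf and root shared 6 above (0.821% of the leaf genes, beside 0.927%) and 3 below (1.75%, beside 3.19%). Stalk and root shared 1 above (0.629% of the stalk genes, beside 0.927%), and leaf and stalk shared 0 below. No gene lay above in all 3 tissues and none below in all 3.

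Genes that differed between the namesakes showed where VxG88 fell between them. Position was set at 0 for the Va116 mean and 1 for the GDH88 mean on the log2 scale, over genes called between the namesakes with a difference of at least 1. In leaf the median position of VxG88 was 0.26 over 145 genes, and 57 of them (39.3%) lay between 0.25 and 0.75. All these genes were read in the same libraries, so no interval over genes is given. On leaving out 1 library the share lay between 22.9% and 42.9%. VxG88 was within 0.25 of Va116 or past it in 72 genes, and within 0.25 of GDH88 or past it in 16. The genes higher in Va116 stood at a median of 0.14 and those higher in GDH88 at 0.44. On this log2 scale VxG88 thus lay near Va116 in the first and close to the middle in the second. Position is not a share of the FPKM level. The libraries differed for the genes higher in GDH88: their median position was 0.39, 0.59 and 0.43 in leaf VxG88 1, 2 and 3. Of these 73 genes, 29, 9 and 27 were nearer to Va116 than 0.25 in the 3 libraries. For the 72 genes higher in Va116 the medians were 0.16, 0.17 and 0.089, with no library apart. Without leaf VxG88 2 the median position over 195 genes was 0.18.

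In stalk the median position was 0.040 over 28 genes, with 16 genes at or near Va116, 2 between and 10 at or near GDH88. In root it was 0.74 over 18 genes, of which 17 were higher in GDH88, 9 lay between and 8 at or near GDH88. These root genes had been selected with GDH88 2 among the GDH88 libraries, and without it 71 genes separated the namesakes, at a median position of 0.28. Without stalk GDH88 1 the stalk median was 0.0041 over 49 genes. Other libraries moved the lists too. Without stalk Va116 1 the stalk list held 90 genes, of which 37.8% lay between, against 7.14% of the 28, and without leaf GDH88 3 the leaf list held 48 genes, of which 22.9% lay between. Without root GDH88 3 the root list held 6 genes, of which 16.7% lay between, against 9 of the 18.

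Genes expressed in 1 namesake and absent from the other set the VxG88 libraries of leaf apart from each other. A gene was counted as expressed when all 3 libraries had at least 1 FPKM and as off when all 3 had less than 0.1 FPKM, and a VxG88 library was off for a gene below 0.1 FPKM. In leaf 42 genes were expressed in Va116 and off in GDH88. VxG88 libraries 1, 2 and 3 expressed them at a median of 71.1%, 64.1% and 102% of the Va116 mean, and 40 of the 42 were off in no VxG88 library. Another 43 genes were expressed in GDH88 and off in Va116. For these the medians were 0.232%, 45.4% and 0.162% of the GDH88 mean, and 23, 6 and 25 genes were off in libraries 1, 2 and 3. Thus 18 of the 43 were off in libraries 1 and 3 and expressed in library 2. The reverse also occurred among the 6 genes off in library 2. Nitab4.5_0000159g0130 had 10.61, 0 and 4.25 FPKM and Nitab4.5_0000198g0010 had 2.78, 0 and 2.17 FPKM in leaf VxG88 1, 2 and 3.

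**Figure D3:**
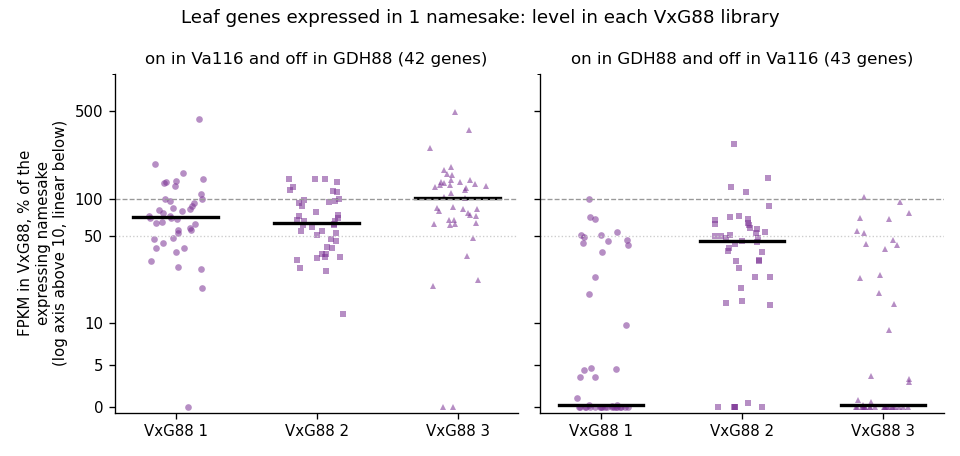
Level of leaf genes expressed in 1 namesake only (y axis, percent of the mean FPKM of that namesake, logarithmic above 10 and linear below) in VxG88 libraries 1 to 3; each point is 1 gene and bars are medians. In the 43 genes of GDH88 the medians are 0.232%, 45.4% and 0.162%, whereas in the 42 genes of Va116 they lie between 64.1% and 102%.

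The genes with the highest levels showed both forms. Nitab4.5_0000138g0170 had 68.7, 21.1 and 49.5 FPKM in VxG88 leaves, against 64.4, 63 and 60.9 FPKM in Va116 leaves and 0 in all GDH88 leaves. It was called against GDH88 (limma adjusted p = 0.00077) and not against Va116 (adjusted p = 0.85). Nitab4.5_0000697g0180 had 40.3, 48.3 and 11.1 FPKM in VxG88 leaves, against 34.55, 57.45 and 56.45 FPKM in Va116 leaves and 0 in GDH88 leaves. In contrast, Nitab4.5_0000212g0010 had 0.03, 23 and 0 FPKM in VxG88 leaves, against at most 0.03 FPKM in Va116 leaves and 201, 94.5 and 161 FPKM in GDH88 leaves. Only leaf VxG88 2 expressed it, and it was near 0 in the stalk and root libraries of all 3 materials.

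In stalk and root the lists were short while all libraries were used. In stalk 14 genes were expressed in Va116 and off in GDH88, and VxG88 stood at medians of 0%, 6.84% and 2.24% of Va116. The 19 stalk genes expressed in GDH88 and off in Va116 had a median of 0% in each VxG88 library. Nitab4.5_0005672g0030, for example, was at 0 in all VxG88 and GDH88 stalks, against 9.35, 19.6 and 26.5 FPKM in Va116 stalks, yet it was expressed in roots of all 3 materials at 8.54 FPKM or more. In root 6 genes were of the Va116 kind and 11 of the GDH88 kind, and those of the GDH88 kind stood at 39.2%, 39.9% and 45.5% in VxG88 roots. An example is Nitab4.5_0022627g0010, with 9.05, 16.8 and 18.7 FPKM in VxG88 roots, against at most 0.01 FPKM in Va116 roots and 28.1, 13.7 and 27.5 FPKM in GDH88 roots. It was called against Va116 (adjusted p = 0.014) and not against GDH88 (adjusted p = 0.61).

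Leaving out the doubted GDH88 libraries enlarged these lists and changed their medians. Without GDH88 1, stalk had 45 genes of the Va116 kind, at 41.7%, 54.9% and 59.1% of Va116 in VxG88 1, 2 and 3, and 42 of the GDH88 kind, at 0.159%, 0% and 0% of GDH88. Without GDH88 2, root had 42 genes of the Va116 kind, at 56.9%, 52.1% and 62.8%, and 54 of the GDH88 kind, at 0%, 0% and 0.506%. The median of the root genes of the GDH88 kind was hence at most 0.506% in each library, against 39.2% to 45.5% with GDH88 2 included. In these fuller lists of stalk and root each VxG88 library held most genes of Va116 and lacked most of those of GDH88. Off in VxG88 1, 2 and 3 were 25, 31 and 31 of the 42 stalk genes of GDH88. Among the 54 root genes of GDH88 these counts were 34, 33 and 31. Off in no VxG88 library were 6 of these stalk genes and 15 of these root genes. In leaf, where no GDH88 library was left out, 23, 6 and 25 of the 43 genes of GDH88 were off, and library 2 was the exception.

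The same on and off rule applied to all tissues at once, without stalk GDH88 1 and root GDH88 2, gave 25 genes. The 14 expressed in Va116 were off in none of the 9 VxG88 libraries, at a median of 94.4% of Va116 with a range over genes of 39.7% to 202%. Of the 11 expressed in GDH88, 8 were off in all VxG88 libraries except leaf VxG88 2, where the 11 genes stood at a median of 43.3%. Nitab4.5_0000202g0480 was instead off in all VxG88 libraries except stalk VxG88 1, at 3.59 FPKM, which is also the doubted library of its group. Nitab4.5_0001740g0030 reached 4.97 FPKM in leaf VxG88 2 and 0.16 FPKM in stalk VxG88 2 and was off in the others. Nitab4.5_0014353g0010 alone was off in no VxG88 library, at a median of 33.2% of GDH88. Of the libraries left out of the choice, stalk GDH88 1 had the 11 genes at a median of 50.2% and none off, and the 14 genes of Va116 at 102%. Root GDH88 2 had 10 of the 11 genes off and the 14 genes of Va116 at 96.3%. The other GDH88 libraries lacked those 14 genes by construction of the list.

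**Figure D4:**
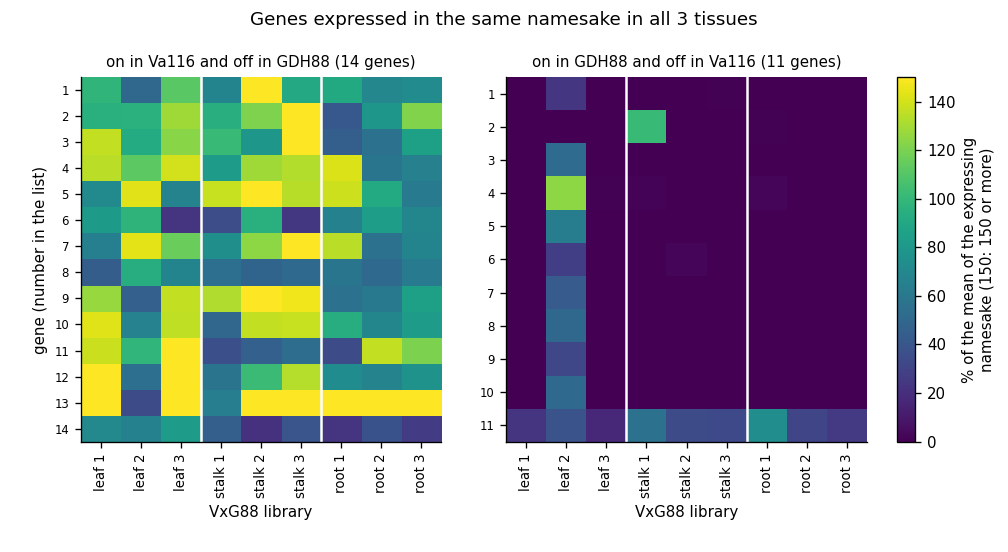
Level in the 9 VxG88 libraries (columns) of genes expressed in the same namesake in leaf, stalk and root (rows), coloured by percent of the mean of that namesake. All 14 genes of Va116 are off in no column, while 8 of the 11 genes of GDH88 are off in every column but leaf library 2, row 2 is high in stalk library 1 alone and row 11 is off in none.

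Several of these genes were neighbours by their identifiers, whose number before the letter g names the scaffold. The 14 genes of Va116 came from 9 scaffolds with 5 on one of them, and the 11 of GDH88 also came from 9 scaffolds with 3 on one. In leaf the 42 genes of Va116 fell on 32 scaffolds with up to 8 on a single one, and the 43 genes of GDH88 on 35 scaffolds.

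Whether the difference from the midpoint itself differed between tissues was tested in a fit over all 27 libraries and 41038 genes. It differed between leaf and root in 6 genes (0.0146%), between stalk and root in 6 (0.0146%) and between leaf and stalk in 1 (0.00244%; limma, adjusted p below 0.05). At an unadjusted p below 0.05 the counts were 2286, 2100 and 805. Nitab4.5_0019167g0010, silent in leaf and stalk and expressed in VxG88 roots, is in both counts with root, at a difference of -3.30. It was at 0 in every library of that fit except the VxG88 roots, so libraries at 0 set its spread there and no p is given. Nitab4.5_0002485g0020 also differed in both. VxG88 leaves had 14.7, 34.8 and 42.6 FPKM, inside the span of 12.7 to 29.2 FPKM of the namesakes for 1 library and above it for 2. VxG88 roots lay above all 6 namesake roots. In stalk every library of the 3 materials was at 0.92 FPKM or less, under the filter, so libraries near 0 entered the spread of its difference as well. Nitab4.5_0000806g0160 differed between stalk and root by -2.73. It had 0.04, 0.11 and 0.08 FPKM in VxG88 stalks, against 0.13, 0.21 and 0.25 FPKM in Va116 stalks and 19.1, 40.4 and 76.9 FPKM in GDH88 stalks. In root every library of the 3 materials was at 0.38 FPKM or less, under the filter. Libraries near 0 thus entered its spread, and no p is given for the tissue difference. In the stalk fit it was not called off the midpoint (limma adjusted p = 0.24).

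No member of the NtGST family was called off the midpoint or against either namesake in any tissue by limma. Of the 59 members, 42 were tested for leaf, 39 for stalk and 49 for root, and at an unadjusted p below 0.05 there were 1, 2 and 9, or 2.38%, 5.13% and 18.4% of members beside 3.86%, 1.52% and 6.34% of all genes. In leaf 21 members lay above and 21 below the midpoint, with a median of 0.0017 on the log2 scale, against a median of 0.11 over all genes, of which 65.8% lay above. In stalk 18 lay above and 21 below with a median of -0.098, against 0.05 over all genes, of which 60.7% lay above. In root 32 of 49 lay above the midpoint with a median of 0.23, against a median of -0.13 over all genes, of which 33.1% lay above. Without root GDH88 2 the split in root was again 32 of 49, with a median of 0.29. The size of the median depended on other libraries and settings. It was 0.075 (30 of 49 above) without VxG88 3, 0.11 (30) without Va116 2 and 0.12 (28) at the linear midpoint, but 0.34 (36) with median scaling.

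The root members above the midpoint were mostly of the Tau class, the large plant class known for conjugating herbicides and other foreign compounds. Of 34 Tau members tested in root, 27 lay above the midpoint, with a median of 0.29, and 8 of them had an unadjusted p below 0.05. The count above was 23 without root Va116 2, 23 at the linear midpoint and 28 without root VxG88 1. NtGSTU10 had 145, 121 and 113 FPKM in VxG88 roots, against 112, 88 and 77.1 FPKM in Va116 roots and 67.2, 49.5 and 52.3 FPKM in GDH88 roots. All VxG88 roots were above all namesake roots for this gene, at 0.81 ± 0.21 above the midpoint (SE, unadjusted p = 0.0039, adjusted p = 0.74). NtGSTU5 was the other member with VxG88 roots above all others, at 4.29, 2.9 and 3.56 FPKM, against 2.83, 0.94 and 1.48 FPKM in Va116 roots and 1.09, 1.47 and 2.19 FPKM in GDH88 roots. NtGSTU40 had 434, 200 and 149 FPKM in VxG88 roots, against 111, 187 and 107 FPKM in Va116 roots and 182, 99.6 and 98.3 FPKM in GDH88 roots. Its groups overlapped and its difference was 0.9 ± 0.39 (SE, adjusted p = 0.74). The largest root difference, NtGSTU30 at 1.24 ± 0.64, came from libraries between 7.19 and 18.1 FPKM in VxG88 and between 0.82 and 15.5 FPKM in the namesakes. The lowest was NtGSTU35 at -0.94. The direction in root did not recur elsewhere: 12 of 25 Tau members lay above the midpoint in leaf (median -0.070) and 10 of 23 in stalk (median -0.21). The largest Tau differences in stalk were NtGSTU8 at -1.55, NtGSTU32 at -1.48, NtGSTU5 at -1.31 and NtGSTU15 at -1.01, none of them called.

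The Phi class, which also conjugates foreign compounds, had 1 of 3 tested members above the midpoint in root. NtGSTF2 had 1.89, 3.93 and 3.66 FPKM in VxG88 roots, below all of 4.17 to 4.82 FPKM in Va116 roots and 4.75 to 8.02 FPKM in GDH88 roots (-0.67 ± 0.23, SE, unadjusted p = 0.017, adjusted p = 0.74). NtGSTF4, the most abundant Phi member named here, had 642, 185 and 203 FPKM in VxG88 roots, against 230, 343 and 130 FPKM in Va116 roots and 313, 161 and 288 FPKM in GDH88 roots. The spread within each group was larger than the difference between them (0.33 ± 0.48, SE). In stalk NtGSTF4 was lower than in either namesake by mean, at 75.8 FPKM in VxG88 against 143 FPKM in Va116 and 124 FPKM in GDH88, with overlapping libraries (-0.63 ± 0.48, SE, adjusted p = 1).

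The smaller classes held few tested members, none of them called. Lambda members are glutathione-dependent thiol transferases. NtGSTL3 had 10.6, 3.39 and 5.81 FPKM in VxG88 leaves, against 8.29 to 10.4 FPKM in Va116 leaves and 11.2 to 16.6 FPKM in GDH88 leaves (-0.77 ± 0.29, SE, unadjusted p = 0.025). It was also the stalk member with the lowest p, at 3.17, 4.86 and 3.1 FPKM in VxG88 stalks, against 25.4, 8.23 and 16 FPKM in Va116 stalks and 12.8, 4.21 and 5.14 FPKM in GDH88 stalks (-1.25 ± 0.4, SE, adjusted p = 1). NtGSTL1 was at 0 in all VxG88 and Va116 roots and did not pass the filter there. NtGSTZ1, of the Zeta class that isomerises maleylacetoacetate in tyrosine breakdown, had 67.7, 75.6 and 76.9 FPKM in VxG88 leaves, against 46.5, 60 and 44.2 FPKM in Va116 leaves and 71.7, 55.8 and 49.3 FPKM in GDH88 leaves (0.44 ± 0.19, SE, adjusted p = 0.92). All 4 Zeta members lay above the midpoint in leaf and in stalk, where 65.8% and 60.7% of all genes did, and 2 of 4 in root, where 33.1% of all genes did. NtDHAR3, a dehydroascorbate reductase that regenerates ascorbate, had 30.6, 50.6 and 72.4 FPKM in VxG88 roots, against 56.1, 50.8 and 35.4 FPKM in Va116 roots and 120, 85.7 and 80.1 FPKM in GDH88 roots. VxG88 overlapped with Va116 and lay below GDH88 in each library, though neither contrast was called. NtGSTT2, of the Theta class with glutathione peroxidase activity, stayed within overlapping ranges in all tissues, with differences of 0.28 ± 0.3 for leaf, 0.18 ± 0.65 for stalk and 0.36 ± 0.31 for root (SE).

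**Figure D5:**
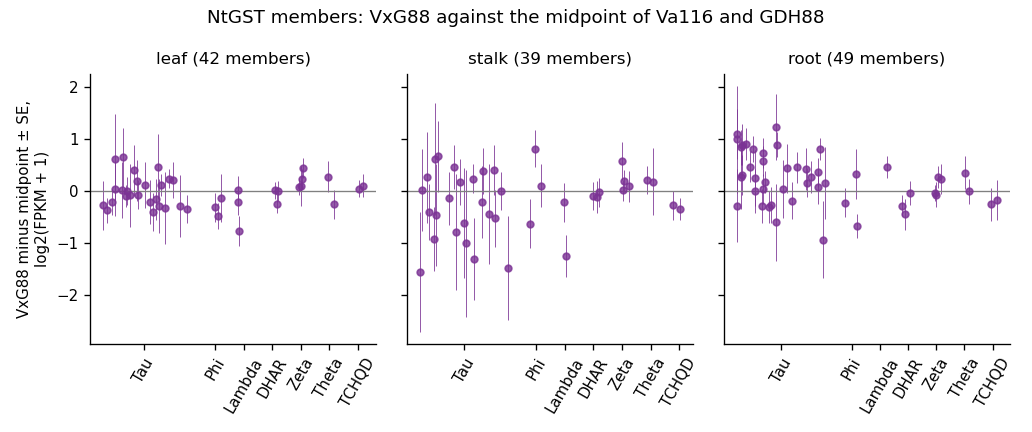
Difference of VxG88 from the midpoint (y axis, log2(FPKM + 1), bars are the SE) for the NtGST members tested in leaf, stalk and root, grouped by class along the x axis. In root 27 of 34 Tau members lie above 0, whereas leaf is split 21 to 21 over all members and stalk 18 to 21.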

How the data were processed

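RNA was taken from leaf, stalk and root after topping, 3 plants per replicate, and sequenced as paired-end Illumina libraries. The FPKM values, 1 table per tissue, were used as deposited. HISAT2, StringTie and RSEM are listed in the submitters' processing notes, with versions, genome build and annotation not given in the sources used here. That the unit is FPKM rests on a panel legend of the study, so TPM cannot be told apart from it. No table used here pairs the identifiers with names (0 matched). NtGST names came from the study's list. Tobacco is an allotetraploid, and how reads shared by near-identical copies were split is not stated, so low members of duplicated families are uncertain. Sequencing depth is unknown and limits the precision of low values.

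Values were transformed to log2(FPKM + 1), a scale that understates changes of low genes. Genes that reached 1 FPKM in 3 or more of the 9 libraries of a tissue entered limma 3.58.1 with a trend (R 4.3.3), fitted per tissue with contrasts of VxG88 against the midpoint of the namesakes and against each of them. P-values were adjusted by Benjamini-Hochberg over all genes tested and called below 0.05. A further fit over 27 libraries tested the difference between tissues. Deviations of same-numbered libraries from their group means correlated above 0.1 in all 3 pairs for VxG88 and GDH88 in leaf and root and for Va116 and GDH88 in leaf. The column number was therefore taken as a possible pairing in these comparisons and not in the others. For VxG88 and GDH88 in root these correlations were only 0.28, 0.34 and 0.15, while root VxG88 1 and Va116 2, with unlike numbers, reached 0.61. The replicate block was fitted over all 9 libraries of a tissue. Scripts were tested on simulated data. Tables were made with pandas 2.3.3. No column was left unmapped.

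The named identifiers were, per tissue, the 2 highest and 2 lowest differences among genes with all VxG88 libraries outside the namesakes (called ones first) and the 2 highest genes expressed in each namesake alone. The NtGST members chosen by rule were the 6 of the study's expression panel and the 5 with the largest difference per tissue. Not all of these are described in the text. Further members were named after their values were seen (NtGSTU10, NtGSTU5 and NtGSTF2 in root). So were Nitab4.5_0014353g0010, Nitab4.5_0000202g0480, Nitab4.5_0001740g0030, Nitab4.5_0000159g0130 and Nitab4.5_0000198g0010. The members and lists were chosen with earlier results of these data known. Alternatives were other pseudocounts, filters, scalings, weights, fits with all 18 libraries of a tissue, the replicate block, a linear midpoint, other limits, and leaving out each library. Leaving out doubted libraries together and the list over all 3 tissues were chosen after seeing the data.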

Additional observations from a re-analysis of the deposited data

Results flagged for a closer look

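The difference of VxG88 from the midpoint differed between leaf and root in 6 genes, between stalk and root in 6 and between leaf and stalk in 1 by an interaction test in limma over 27 libraries. Of the 6 genes for leaf and root, 1 was higher and 5 lower in leaf, and all 6 for stalk and root were lower in stalk.

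Genes higher in VxG88 than in both namesakes also had transcripts in Hongda, a material outside the comparisons. Mean levels in Hongda were 13.01 FPKM for Nitab4.5_0006949g0020 in leaf (VxG88 5.96 FPKM), 7.58 FPKM for Nitab4.5_0006949g0030 in leaf (VxG88 4.93 FPKM), 144 FPKM for Nitab4.5_0000571g0030 in stalk (VxG88 89.7 FPKM) and 17.3 FPKM for Nitab4.5_0000020g0190 in stalk (VxG88 8.05 FPKM).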

How the results depend on the processing

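All counts of NtGST members called stayed at 0 under every alternative run. The 32 NtGST results chosen by the rule, not all of them described here, stayed uncalled. Of 24 results of identifiers chosen by the rule, 8 lost their call in 70 fits in all and 8 gained one in 20. A called value reversed for Nitab4.5_0001737g0010 in leaf, at -0.12 against the linear midpoint, and Nitab4.5_0002906g0110 in root, not called, changed sign at a pseudocount of 0.01 (0.068, against -0.71). Depth is unknown, so low values cannot be given a counting error, and with 3 libraries per group 1 library decided most counts; the cause of the changes below was not tested.

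Leaving out 1 library gave 1 to 32 leaf genes off the midpoint, 0 to 15 stalk genes and 0 to 10 root genes. The ranges were 7 to 19, 0 to 11 and 1 to 19 genes against Va116, 25 to 87, 3 to 38 and 0 to 29 against GDH88, and 48 to 195, 5 to 90 and 5 to 71 between the namesakes, in leaf, stalk and root in that order. Genes beyond both numbered 1 to 6, 0 to 2 and 0 to 6, and the share of genes between the namesakes was 22.9% to 42.9%, 0% to 37.8% and 16.7% to 62.5%. The stalk extremes of 11, 90 and 37.8% came without Va116 1, the leaf lows of 25, 48 and 22.9% without GDH88 3, and the leaf lows of 1 and 7 without VxG88 3.

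Over all 3 materials the column numbers are not shown to pair samples: 8 of 9 correlations between same-numbered libraries were over 0.1 for leaf, 5 of 9 for stalk and 6 of 9 for root. With the column number as replicate block, genes off the midpoint numbered 11 (leaf), 0 (stalk) and 0 (root), those against Va116 3 in stalk and 1 in root, against GDH88 7 in stalk and 0 in root, between the namesakes 224 in leaf and 8 in root, beyond both 0 in stalk and 0 in root, and 29.6% of stalk genes lay between.

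With a pseudocount of 0.1 there were 23, 0 and 2 genes off the midpoint in leaf, stalk and root, 1, 0 and 0 beyond both, 16 between the namesakes in stalk, shares between of 30.4%, 0% and 16.7%, and tissue differences in 3 (leaf and root) and 1 (stalk and root). With 0.01 there were 23, 0 and 2 off the midpoint, 0 beyond both in each tissue, 1 (stalk) and 2 (root) against GDH88, 8 between the namesakes in stalk, and shares of 22.8%, 0% and 16.0%. With a minimum of 5 FPKM there were 4, 0 and 0 off the midpoint, 0 beyond both in each tissue, 8 (leaf) and 2 (stalk) against Va116, 30, 3 and 0 against GDH88, 75 (leaf) and 6 (stalk) between the namesakes, and 0% of stalk genes between. With no filter there were 3 beyond both in stalk, and in root 2 off the midpoint and 2 against GDH88. Median scaling gave 2 off the midpoint in stalk, and the linear midpoint 6 in leaf and 9 in stalk.

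With array quality weights there were 17 (leaf) and 19 (root) off the midpoint, 17 (stalk) and 18 (root) against Va116, 91 (leaf) and 19 (stalk) against GDH88, 221 (leaf) and 130 (stalk) between the namesakes, and 49.2% of stalk genes between. With all 18 libraries of a tissue in the fit there were 24, 16 and 2 off the midpoint, 10 in stalk against Va116, 146, 35 and 0 against GDH88, 294 (leaf) and 59 (stalk) between the namesakes, and 4 (stalk) and 0 (root) beyond both. Bins at 0.33 and 0.67 gave shares of 23.4% in leaf and 16.7% in root. The mean place of VxG88 was 0.50, 0.34 and 0.32 over genes from either other tissue. Expression at 2 FPKM and off at 0 gave medians of 0.073% (stalk) and 43.7% (root) for genes of GDH88. Without the doubted GDH88 library these were 0.95% and 2.62%, and 53.9% for stalk genes of Va116. Without stalk GDH88 1 and VxG88 1 together there were 2 off the midpoint, 2 against Va116 and 20 against GDH88. Without leaf VxG88 2 and stalk VxG88 1, leaf and stalk differed in 3 genes.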

Other observations

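A small group of genes was expressed at 1 FPKM or more in all VxG88 libraries of a tissue and at less than 0.1 FPKM in all 6 namesake libraries. Leaf had 1 such gene, stalk 2 and root 1, and in no tissue was a gene off in VxG88 and expressed in both namesakes. The leaf gene, Nitab4.5_0001416g0030, was chosen after its values were seen. It had 1.97, 11.9 and 7.96 FPKM in VxG88 leaves, against at most 0.04 FPKM in either namesake, and averaged 8.71 FPKM in Hongda, 7.86 FPKM in Basma and 0.017 FPKM in HxB leaves. It was not called off the midpoint. Both stalk genes were expressed in Hongda as well, and the root gene, Nitab4.5_0019167g0010, averaged 9.29 FPKM in Hongda, 3.9 FPKM in HxB and 17 FPKM in Basma roots.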
